A study of Mus musculus with 217 samples.

Results

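The 7 voltage-gated sodium channel genes Scn4b, Scn2b, Scn3b, Scn1a, Scn2a, Scn3a and Scn8a were followed by their symbols, out of the 54532 genes counted, and all 7 were present in every library set. RNA-Seq had been carried out on striatum and cortex of LacQ140 mice, a knock-in model of Huntington's disease in which lac operators control the mutant huntingtin (mHtt) allele, to ask how the time at which mHtt is lowered bears on transcription. The 217 libraries came from 110 mice, 107 of which gave both tissues, with 100 libraries from animals aged 6 months and 117 from animals aged 12 months. There were 10 libraries per group, from 5 females and 5 males, and 9 in the 12-month striatum of WT, LacQ140 and LacQ140_8M.

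All animals were on the C57BL/6 background and all, wild types included, carried the β-actin-LacIR transgene, a lac repressor driven ubiquitously by a β-actin promoter. WT animals were Hdh(LacO-+/+), either untreated or given isopropyl β-D-1-thiogalactopyranoside (IPTG) throughout life from embryonic day 5 (WT + IPTG). The mutants were Hdh(LacO-140Q/+), with 1 expanded and 1 normal allele. With IPTG throughout life they expressed mHtt (LacQ140), without IPTG the allele was repressed from conception (LacQ140_A), and IPTG was withdrawn at 2 months in LacQ140_2M and at 8 months in LacQ140_8M, the last group existing at 12 months of age alone. The repressor acts in the whole body, so lowering was not restricted to neurons, and LacQ140_A differed from LacQ140 in IPTG exposure as well as in mHtt.

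Voltage-gated sodium channels start and carry the action potential. Their α subunits (Scn1a, Scn2a, Scn3a and Scn8a here) form the pore, and each can associate with β subunits (Scn2b, Scn3b and Scn4b here), small membrane proteins that set gating, surface delivery and adhesion. In the striatum, the β subunit encoded by Scn4b is abundant in spiny projection neurons, the cells most affected in Huntington's disease, where its intracellular tail can plug the open pore and give the resurgent current that helps neurons fire repeatedly.

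Several of the genes lie in clusters. On the plus strand of chromosome 9 (GRCm38, GENCODE), Scn2b (ENSMUSG00000070304) spans bases 45117782 to 45130070 and Scn4b (ENSMUSG00000046480) bases 45138395 to 45154152, with 8325 bases between them, while Scn3b (ENSMUSG00000049281) lies apart at 40269217 to 40291618. On chromosome 2, Scn3a (ENSMUSG00000057182, 65457118 to 65567627, minus strand), Scn2a (ENSMUSG00000075318, 65620771 to 65767447, plus strand) and Scn1a (ENSMUSG00000064329, 66270778 to 66440840, minus strand) follow each other, with gaps of 53144 and 503331 bases. Scn8a (ENSMUSG00000023033) lies on chromosome 15 at 100869858 to 101045938 on the plus strand. Annotated genes on the opposite strand overlap Scn2b (Gm10684), Scn3b (Gm47266), Scn1a (Gm13630) and Scn3a (Gm13595). Whether counting used strand is not given in the sources used here, so reads of those partners could not be told apart from theirs.

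The start regions of Scn4b and Scn2b are shown because these neighbours were the members whose striatal level was lower in LacQ140 mice. Both are plus-strand RefSeq windows of 300 bases (GRCm38.p6, 250 before and 50 after the RefSeq start), written 5′ to 3′. Every CG dinucleotide, the site at which mammalian DNA is methylated, is in capitals. The RefSeq starts lie downstream of the GENCODE gene starts given above. Most of the bases before the start for Scn4b, and a smaller part for Scn2b, thus fall inside the GENCODE gene.
Scn4b, chr9:45138374-45138673: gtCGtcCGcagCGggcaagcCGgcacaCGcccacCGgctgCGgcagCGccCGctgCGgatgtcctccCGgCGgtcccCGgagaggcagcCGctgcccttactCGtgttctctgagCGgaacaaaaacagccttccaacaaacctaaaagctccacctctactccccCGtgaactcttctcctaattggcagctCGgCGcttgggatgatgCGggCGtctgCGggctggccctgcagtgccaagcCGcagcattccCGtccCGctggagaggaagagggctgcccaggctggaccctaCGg
Scn2b, chr9:45117626-45117925: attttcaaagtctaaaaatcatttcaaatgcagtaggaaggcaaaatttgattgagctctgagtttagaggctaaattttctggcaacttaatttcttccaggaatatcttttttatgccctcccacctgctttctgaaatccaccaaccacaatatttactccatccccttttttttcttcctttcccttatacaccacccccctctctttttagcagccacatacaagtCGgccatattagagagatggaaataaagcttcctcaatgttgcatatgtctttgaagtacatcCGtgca
The Scn4b window held 26 CG dinucleotides at a GC content of 66.3%, and 16.9% of 32851 promoter windows had as many or more. The Scn2b window held 2 at a GC content of 38.3%, and 23.3% of windows had as many or fewer, against a median of 7 CG and 52.7% GC. The neighbours thus had start regions of unlike composition. RefSeq windows were found for 5 of the 7 members, Scn3a and Scn3b being without one, and methylation was not measured in these samples.

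Sequencing depth was 33292057 to 68038831 estimated reads in genes per library. Spiny neuron markers (10 genes, among them Ppp1r1b, Drd1 and Adora2a) summed to a median of 8344 normalised read counts (CPM, scaled by library size and TMM factor) in 6-month and 10620 in 12-month WT + IPTG striatum, against 478 and 338.8 CPM in cortex. Cortical excitatory neuron markers (6 genes) ran the other way, with medians of 46.3 and 29.58 CPM in striatum against 1351 and 773.6 CPM in cortex, so the tissue labels held. The slope of log2 CPM on log2 transcript length ran from -0.48 to -0.03 in the 12-month cortex libraries and from -0.00 to 0.46 in all the others, so long transcripts had relatively lower counts in 12-month cortex. The ages formed separate batches, and age and batch cannot be told apart. The striatal library LacQ140_2M F4 at 12 months stood apart, with a thalamic neuron marker sum of 419.4 CPM against 47.51 to 135.0 CPM in the other libraries of its group and a spiny marker sum of 5055 CPM against 6687 to 7892 CPM.

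Scn4b was the most abundant member per length in striatum. In WT + IPTG mice its level per kilobase of longest transcript was 298.5 ± 41.6 CPM per kb (SD, n = 10) at 6 months and 356.3 ± 29.4 (n = 10) at 12 months. Scn2b followed at 63.5 ± 4.55 and 76.7 ± 7.86 CPM per kb, and Scn3b at 30.5 ± 3.35 and 34.7 ± 2.44. Among the pore-forming subunits at 6 months, Scn2a stood at 19.4 ± 2.06, Scn8a at 14.7 ± 1.71, Scn1a at 11.5 ± 1.56 and Scn3a, mainly a channel of the developing brain, at 5.37 ± 0.629 CPM per kb. The libraries of Scn4b, Scn2b and Scn3b did not overlap in either of these steps, whereas Scn3b and Scn2a, Scn2a and Scn8a, and Scn8a and Scn1a overlapped as neighbours at 6 months. At 12 months the order was the same except that Scn8a (21.3 ± 1.40) and Scn2a (20.1 ± 2.58) changed places, and these overlapped.

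Cortex had a different order. At 6 months Scn2b led at 44.6 ± 2.98 CPM per kb, and Scn2a (20.9 ± 3.44), Scn3b (20.4 ± 1.48), Scn4b (17.8 ± 2.50) and Scn8a (17.6 ± 2.78) each overlapped the next, while Scn1a (12.5 ± 1.93) did not overlap Scn3a. At 12 months the long α transcripts were at 0.773 ± 0.0647 (Scn3a) to 8.39 ± 0.827 (Scn1a) CPM per kb, in the libraries with the reversed length slope, so no order across ages was read from them.

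**Figure D1:**
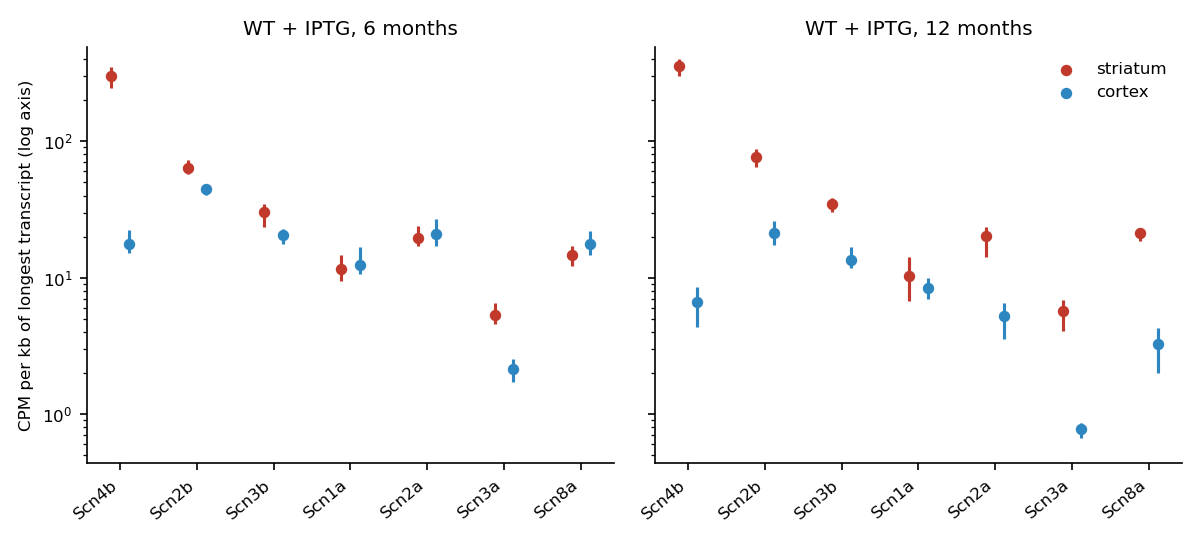
Level of the 7 members per kilobase of longest annotated transcript in WT + IPTG mice, striatum in red and cortex in blue, on a log axis; points are means and bars run from the lowest to the highest of 10 libraries. Scn4b stood above every other member in striatum (298.5 and 356.3 CPM per kb) and among the others in cortex.

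Between tissues of the same wild-type mice (WT + IPTG, mouse as block, edgeR's quasi-likelihood test), Scn4b was higher in striatum by 4.07 on the log2 scale (SE 0.060, adjusted p 9.34e-20) at 6 months and by 5.62 (SE 0.11, adjusted p 9.35e-21) at 12 months. Calls required an adjusted p (Benjamini-Hochberg, over all genes tested) under 0.05 together with a change of at least 20%. At 6 months 4 of 7 members were called, all higher in striatum, against 31.2% of all genes in either direction and 15.8% higher: Scn4b, Scn3a (1.32), Scn3b (0.57) and Scn2b (0.51). Scn8a was 0.26 lower in striatum on the log2 scale (adjusted p 0.00586), just short of the fold bound, and it was called with the length slope as a covariate (-0.28, adjusted p 5.23e-05). At 12 months 6 of 7 members were called higher in striatum (background 52.4% in either direction and 26.1% higher), the values being Scn4b 5.62, Scn3a 2.70, Scn8a 2.56, Scn2a 1.79, Scn2b 1.70 and Scn3b 1.201 on the log2 scale. At this age the length slopes of the tissues did not overlap (at most -0.03 in cortex, at least 0.13 in striatum), so tissue and slope can hardly be told apart. With the slope as a covariate the values were 4.78 (adjusted p 4.51e-08) for Scn4b and 1.81 (adjusted p 0.00138) for Scn3a, and 0.92 for Scn8a, 0.70 for Scn3b, 0.53 for Scn2b and 0.16 for Scn2a, which were not called. Scn1a, at 0.12 (adjusted p 0.311) without the covariate, was at -1.01 (adjusted p 0.0535) with it and was called in neither fit.

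Scn4b fell in the striatum of LacQ140 mice at both ages. At 6 months its lowest, median and highest CPM were 1222, 1453 and 1744 in WT + IPTG and 701.7, 935.2 and 1123 in LacQ140. At 12 months they were 1488, 1752 and 1992 in WT + IPTG and 554.9, 613.3 and 766.7 in LacQ140. Every LacQ140 library was below every WT + IPTG library at both ages (at 6 months LacQ140 F3, at 1123 CPM, lay above the untreated WT M5, at 1119 CPM), which 1.15% of all genes showed (in either direction) at 6 months and 2.07% at 12 months. The change was -0.69 on the log2 scale (SE 0.077, 0.620-fold, adjusted p 7.02e-10) at 6 months and -1.48 (SE 0.064, 0.358-fold, adjusted p 4.69e-29) at 12 months by edgeR. In bulk tissue, fewer spiny neurons and less Scn4b RNA per neuron cannot be told apart.

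**Figure D2:**
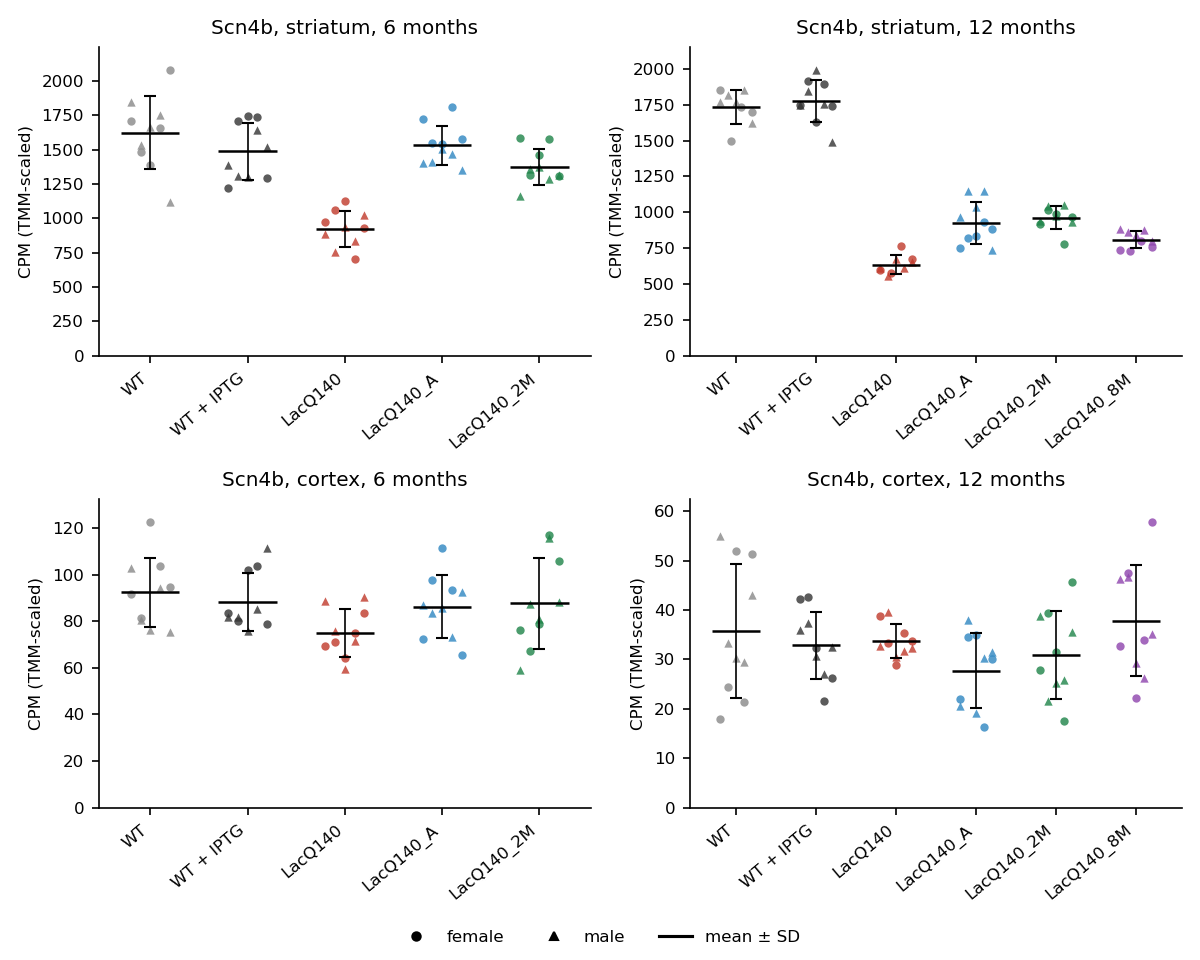
Scn4b CPM in each mouse by group, with females as circles, males as triangles and mean ± SD in black, for each tissue and age on axes that start at 0. The LacQ140 libraries lie under all WT + IPTG libraries in striatum (up to 1123 against at least 1222 CPM at 6 months, up to 766.7 against at least 1488 at 12 months), and groups overlap in cortex.

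The Scn4b difference was larger at the older age. The test of that difference gave -0.80 on the log2 scale (SE 0.10, adjusted p 1.13e-07), for which 2.43% of genes were called. Age and batch coincide in this comparison. The fall was of similar size in females and males at 6 months (-0.69 in each) and at 12 months (-1.45 in females, -1.51 in males), and the sex differences of -0.01 (95% interval -0.30 to 0.28) and -0.06 (-0.28 to 0.16) passed no threshold. Nor did IPTG alone pass in WT striatum, where the Scn4b difference was -0.13 (-0.28 to 0.02) at 6 months and 0.03 (-0.09 to 0.16) at 12 months, with 0.584% and 0.218% of genes called. Of the 7 members, 1 was called at 6 months (Scn4b) and 2 at 12 months (Scn4b and Scn2b), all lower in LacQ140, against 7.93% and 9.44% of all genes called in either direction and 3.96% and 4.86% called lower. The median of the 7 was -0.05 at 6 and -0.11 at 12 months on the log2 scale, against 0.0 over all genes.

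Other cell markers moved in the same libraries, in which 3.96% of all genes were called lower at 6 months and 4.86% at 12 months. Of 10 spiny neuron markers, 9 were called lower in LacQ140 striatum at both ages (all but Tac1), with a median of -0.37 at 6 and -0.84 at 12 months on the log2 scale and summed ranges of 5561 to 7245 CPM in LacQ140 against 6870 to 10190 in WT + IPTG at 6 months, and 5038 to 6207 against 8769 to 11970 at 12 months. Of 7 oligodendrocyte markers 4 were called lower at 6 months and 3 at 12, with summed medians of 11400 against 14510 and 11300 against 13320 CPM. Of 6 microglia markers 4 were called lower at 6 months and 1 at 12, with summed medians of 321.7 against 359.9 and 359.5 against 388.7 CPM. Of 6 pan-neuronal markers none was called at either age (summed medians 4179 against 4226 and 4511 against 4595 CPM). The part of these differences in the Scn4b result was not tested.

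Lowering mHtt early raised Scn4b at 6 months to near its wild-type level. In LacQ140_A its lowest, median and highest CPM were 1353, 1523 and 1806, and in LacQ140_2M 1161, 1338 and 1584. Both groups lay wholly above LacQ140 (highest 1123 CPM), as 0.279% and 0.162% of genes did or did in reverse. Against LacQ140, Scn4b rose by 0.73 on the log2 scale (SE 0.077, adjusted p 3.37e-10) in LacQ140_A and by 0.58 (SE 0.076, adjusted p 7.43e-07) in LacQ140_2M, and it was the member called in each (1.88% and 1.26% of genes called). These gains equalled 106.3% and 83.5% of the log2 LacQ140 difference. Against untreated WT for LacQ140_A and WT + IPTG for LacQ140_2M, the remaining differences were -0.08 (95% interval -0.23 to 0.07, adjusted p 0.732) for LacQ140_A and -0.11 (-0.26 to 0.04, adjusted p 0.59) for LacQ140_2M, and neither passed (0.91% and 1.07% of genes called). Neither wild-type group matches LacQ140_2M in IPTG exposure, and against untreated WT its difference was -0.24 (adjusted p 0.114).

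At 12 months Scn4b was higher than in LacQ140 in all 3 lowering groups and below wild type in each. The lowest, median and highest Scn4b CPM were 738.9, 910.4 and 1149 in LacQ140_A. They were 776.8, 969.3 and 1054 in LacQ140_2M and 730.4, 800.3 and 881.9 in LacQ140_8M. Of these, LacQ140_2M lay wholly above LacQ140 (highest 766.7 CPM), as 0.0933% of genes did in either direction. LacQ140_A and LacQ140_8M overlapped LacQ140 (0.138% and 0.00283% of genes did not overlap in those comparisons). All 3 lay wholly below both wild-type groups (lowest 1488 CPM), a separation whose share over all genes was not counted.

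Against LacQ140 the 12-month gains were 0.54 on the log2 scale (SE 0.063, adjusted p 4.63e-09) in LacQ140_A and 0.60 (SE 0.063, adjusted p 3.5e-10) in LacQ140_2M, with 0.91% and 0.608% of genes called. These are 36.6% and 40.3% of the LacQ140 difference at this age. Without LacQ140_2M F4, the animal with the high thalamic marker sum and the lowest Scn4b of its group, the gain was 0.63 (adjusted p 8.47e-11). The difference left against untreated WT was -0.91 (SE 0.062, adjusted p 2.91e-18) for LacQ140_A. Against WT + IPTG it was -0.89 (SE 0.061, adjusted p 2.22e-18) for LacQ140_2M and -1.13 (SE 0.063, adjusted p 4.7e-23) for LacQ140_8M. These comparisons called 3.15%, 6.43% and 8.07% of genes. The size of the gain did not differ detectably between ages, at -0.18 (95% interval -0.38 to 0.02, adjusted p 0.745) for lowering from conception and 0.03 (-0.18 to 0.23, adjusted p 1.0) for lowering from 2 months (0.142% and 0.0296% of genes called), while the LacQ140 difference it is measured against grew as given above.

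Late lowering gave a smaller value for Scn4b whose call did not hold in every fit. From 8 months the gain was 0.35 on the log2 scale (SE 0.064, 1.27-fold, adjusted p 0.0299), or 23.5% of the LacQ140 difference. Scn4b had the smallest p of all 35386 genes in this comparison and was 1 of 2 genes called (0.00565%). The other, named after its values were seen, was Hcrt, the precursor of the hypothalamic peptide orexin, at 0.0 to 19.32 CPM in LacQ140 and 0.0 to 0.26 CPM in LacQ140_8M. At an unadjusted p under 0.05 there were 1815 genes.

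The late gain rested on a narrow margin. With the length slope as covariate it was 0.30 with an adjusted p of 0.0771, the slope having medians of 0.38 in LacQ140_8M and 0.33 in LacQ140. With each library of the pair of groups left out in turn it was 0.33 to 0.39, called in 9 of 18 fits, and the call was lost (adjusted p up to 0.101) without LacQ140 F1, F3, M1 or M2 or LacQ140_8M F4, M1, M2, M4 or M5. Scn4b was lower in LacQ140_8M than in the early groups by -0.25 against LacQ140_2M (95% interval -0.37 to -0.13, adjusted p 0.0969) and -0.19 against LacQ140_A (-0.32 to -0.07, adjusted p 0.0877), which did not pass (0.0933% and 0.972% of genes called). With the slope as covariate both passed, at -0.29 (adjusted p 0.00843) and -0.27 (adjusted p 0.0199). Lowering from conception and from 2 months differed by -0.05 (-0.17 to 0.06, adjusted p 0.843, 0.0509% of genes called).

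A reversal probability was also computed for each called gene, as 1 minus the probability that lowering changed the LacQ140 effect by at most 30% in either direction (negligible reversal), given the DESeq2 errors of both. Between 30% and 70% undone was termed partial and 70% to 130% full, and the probability of a worsened effect was 0.0 in each case. For Scn4b at 6 months it was 1.0 for both early groups, mostly as full reversal (0.955 for LacQ140_A and 0.9 for LacQ140_2M). At 12 months it was 0.979 from conception and 0.999 from 2 months, all as partial reversal, and 0.0323 from 8 months. With equal weights on the grid of values, the probability from conception was 0.929 and the class was negligible in place of partial. The 8-month value thus fell in the class of negligible reversal although the gain itself was called, since the gain was 23.7% of the DESeq2 difference.

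Total Htt was followed beside these groups, with the limit that the counts do not separate the alleles. In 12-month striatum it was 125.1 to 162.7 CPM in WT + IPTG and 96.7 to 123.5 in LacQ140 (-0.40 on the log2 scale, adjusted p 9.03e-06), so the total was already lower in LacQ140, where mHtt was not lowered. It was 71.39 to 116.7 in LacQ140_A, 85.09 to 119.4 in LacQ140_2M and 93.05 to 119.6 in LacQ140_8M. Against LacQ140 the log2 differences were -0.25 (adjusted p 0.049), -0.15 (adjusted p 0.559) and -0.00 (95% interval -0.14 to 0.14, adjusted p 1.0), so the striatal total gave no check of lowering in the animals labelled LacQ140_8M. In 12-month cortex of these groups the differences were -0.49, -0.43 and -0.41 (95% interval -0.66 to -0.15 for LacQ140_8M), all lower as labelled, but none passed over all genes (adjusted p 0.186, 0.485 and 1.0). In 6-month striatum the differences were -0.21 and -0.20 (adjusted p 0.075 and 0.151).

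**Figure D3:**
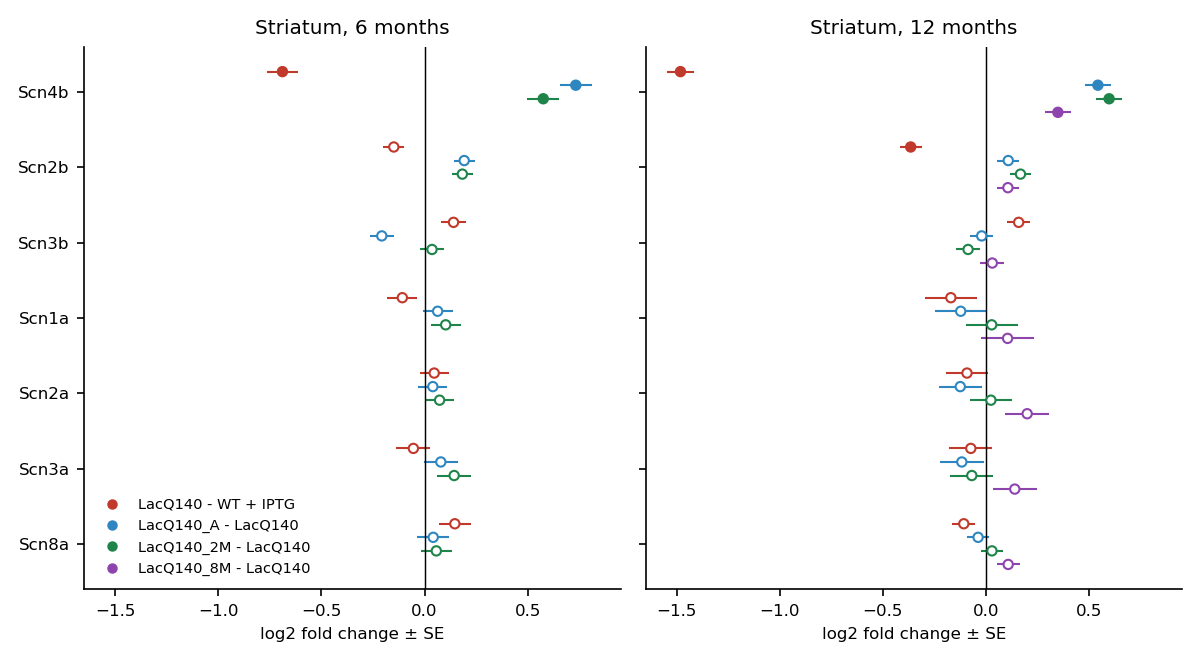
Log2 fold changes of the 7 members in striatum with their SE, for LacQ140 against WT + IPTG (red) and for each lowering group against LacQ140 (blue from conception, green from 2 months, purple from 8 months); filled points were called. Scn4b falls by 0.69 and 1.48 and rises in every lowering group, Scn2b is called in LacQ140 at 12 months, and the α subunit genes have no filled point.

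Scn2b, which encodes the β subunit joined like that of Scn4b to the pore by a disulfide bond, fell in LacQ140 striatum at 12 months. Its lowest, median and highest CPM were 302.5, 358.2 and 408.9 in WT + IPTG and 248.9, 275.7 and 317.3 in LacQ140, so the groups overlapped at their edges. The difference was -0.37 on the log2 scale (SE 0.053, 0.776-fold, adjusted p 1.41e-07). At 6 months the values were 269.6, 296.3 and 337.0 in WT + IPTG and 235.9, 265 and 310 in LacQ140, with a difference of -0.15 (SE 0.052) whose adjusted p of 0.0465 passed but whose size did not reach the fold bound. The test of a change with age gave -0.22 (95% interval -0.37 to -0.08, adjusted p 0.0897).

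The lowering effects on Scn2b were small at each age. Its medians were 306 CPM in LacQ140_A and 302.5 in LacQ140_2M at 6 months, with log2 gains of 0.19 (adjusted p 0.026) and 0.18 (adjusted p 0.0498) that were under the fold bound. At 12 months the medians were 289.2, 315.1 and 301.8 CPM in LacQ140_A, LacQ140_2M and LacQ140_8M, and the gains of 0.11, 0.17 and 0.11 did not pass (adjusted p 0.463, 0.156 and 0.864). They equal 29.4%, 45.6% and 28.9% of the LacQ140 difference, with reversal probabilities of 0.5, 0.92 and 0.489. Against untreated WT at 12 months Scn2b was at -0.12 in LacQ140_A (adjusted p 0.216). Against WT + IPTG it was at -0.20 in LacQ140_2M (adjusted p 0.00499) and -0.26 in LacQ140_8M (adjusted p 0.000175), both short of the fold bound. Scn2b was higher in WT + IPTG than in untreated WT by 0.09 to 0.13 across alternative fits (not called). The value for LacQ140_A therefore cannot be ranked against those for LacQ140_2M and LacQ140_8M.

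**Figure D4:**
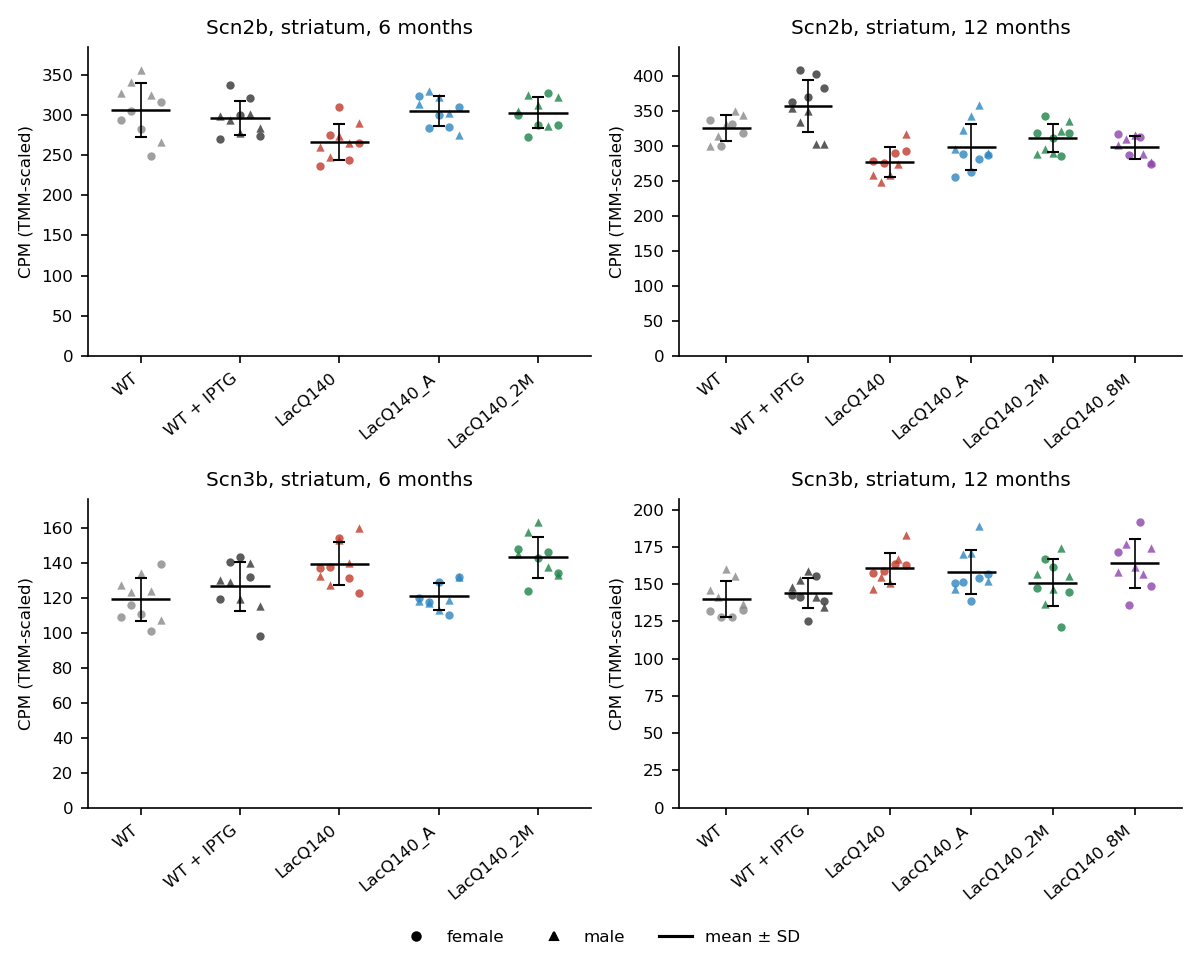
Scn2b (top) and Scn3b (bottom) CPM in striatum in each mouse by group, with mean ± SD and axes from 0. Scn2b in 12-month LacQ140 runs from 248.9 to 317.3 CPM against 302.5 to 408.9 in WT + IPTG, and the Scn3b groups overlap throughout.

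Scn3b, whose β subunit binds the pore without a disulfide bond, did not fall. Its striatal medians were 129.7 CPM in WT + IPTG and 137.2 in LacQ140 at 6 months and 142.1 and 158.7 at 12 months, with overlapping ranges. The differences were 0.14 (SE 0.058, adjusted p 0.119) and 0.16 (SE 0.057, adjusted p 0.0496) on the log2 scale, neither called because the second lay under the fold bound. Lowering from conception gave -0.21 at 6 months (adjusted p 0.0374, under the bound) and -0.02 at 12 months (adjusted p 0.984). Lowering from 2 months gave 0.01 to 0.04 at 6 months and -0.09 to -0.08 at 12 months across alternative fits, not called. In LacQ140_8M Scn3b was 0.19 above WT + IPTG (adjusted p 0.0165, under the bound).

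The 4 pore-forming genes were called in no comparison between groups of striatum. For Scn2a, carried on axons of principal neurons, medians were 172.6 CPM in WT + IPTG and 177.3 in LacQ140 at 6 months and 184.7 and 181.7 at 12 months, and the log2 differences were 0.05 (95% interval -0.09 to 0.18) and -0.09 (-0.30 to 0.11). For Scn8a, the main channel of the mature axon initial segment, medians were 174.8 and 182.1 CPM at 6 months and 246.4 and 226.3 at 12 months, with differences of 0.15 (-0.00 to 0.30) and -0.11 (-0.22 to -0.00). Scn1a, prominent in inhibitory interneurons, gave -0.11 (-0.25 to 0.04) and -0.17 (-0.42 to 0.08), and Scn3a -0.05 (-0.22 to 0.11) and -0.07 (-0.28 to 0.13). These intervals exclude a fall of the size seen for Scn4b at the same age, and at 12 months they leave room for changes of up to -0.42 in Scn1a. The lowering effects on these genes at 12 months ran from -0.13 to 0.20 on the log2 scale and none passed.

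In cortex no member was called for LacQ140, IPTG or lowering at either age. The share of all genes called there was 0.609% and 0% for IPTG, 0.00834% and 0.0435% for lowering from conception, 0% and 0.0841% from 2 months (6 and 12 months of age) and 0% from 8 months. Scn4b at 6 months was 75.87, 82.65 and 111.4 CPM (lowest, median, highest) in WT + IPTG and 59.38, 73.24 and 90.51 in LacQ140, a difference of -0.24 (95% interval -0.44 to -0.04, adjusted p 0.336) with 0.881% of genes called. At 12 months it was 21.56, 32.43 and 42.58 CPM in WT + IPTG and 28.86, 33.1 and 39.52 in LacQ140, a difference of 0.04 (-0.28 to 0.35, adjusted p 1.0) with 0.0899% called. The LacQ140 effect on Scn4b was thus more negative in striatum than in cortex of the same mice, by -0.47 (SE 0.10, adjusted p 0.0138) at 6 months and -1.56 (SE 0.12, adjusted p 5.23e-12) at 12 months, where 1.39% and 3.51% of genes were called. Scn2b differed likewise at 12 months, by -0.54 (SE 0.10, adjusted p 0.000519), and at 6 months by -0.04 (95% interval -0.19 to 0.11).

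Outside the members, 6 further sodium channel genes were read (Scn4a, Scn7a, Scn9a, Scn10a, Scn11a and Nalcn). In LacQ140 striatum 1 of 6, Scn9a, was called higher at both ages and none lower, beside 3.97% and 4.58% of all genes called higher at 6 and 12 months. Scn9a, best known from pain-sensing neurons, rose from 2.52, 3.26 and 4.19 to 3.54, 5.03 and 6.55 CPM at 6 months (0.66 on the log2 scale, adjusted p 5.57e-06) and by 0.81 at 12 months (adjusted p 1.21e-05). Lowering from 2 months brought it down at 6 months by -0.40 (adjusted p 0.0273), while lowering from conception gave -0.26 (adjusted p 0.237, not called), and it passed in no lowering group at 12 months. Scn9a is scarce, and Scn4a was under 0.1 CPM on average in all groups. The median of the 6 genes was 0.05 at 6 and 0.32 at 12 months on the log2 scale, against 0.0 over all genes.

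Of 11 partner genes of the axon initial segment and channel regulation, 1 was called lower in LacQ140 striatum at 6 months and 2 at 12 months, and none higher, beside 3.96% and 4.86% of all genes called lower. Nedd4l, a ubiquitin ligase that removes sodium channels from the membrane, went from 142.8, 178.7 and 217.1 to 118.7, 148.2 and 177.9 CPM at 6 months (-0.28, adjusted p 0.00436). At 12 months it went from 221.6, 257.2 and 279.1 to 160.3, 180.0 and 202.9 CPM (-0.50, adjusted p 1.25e-09). The 12-month groups did not overlap, which 2.07% of all genes showed in either direction. Fgf14, a regulator bound to the tail of sodium channel α subunits, was at -0.28 (adjusted p 0.000941) at 12 months. Nedd4l rose in LacQ140_2M at 6 months (0.30, adjusted p 0.0163) and was at 0.18 in LacQ140_A (adjusted p 0.25, not called), and none of the 11 was called in any lowering group at 12 months. The median of the 11 genes was -0.04 at both ages, against 0.0 over all genes.

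**Figure D5:**
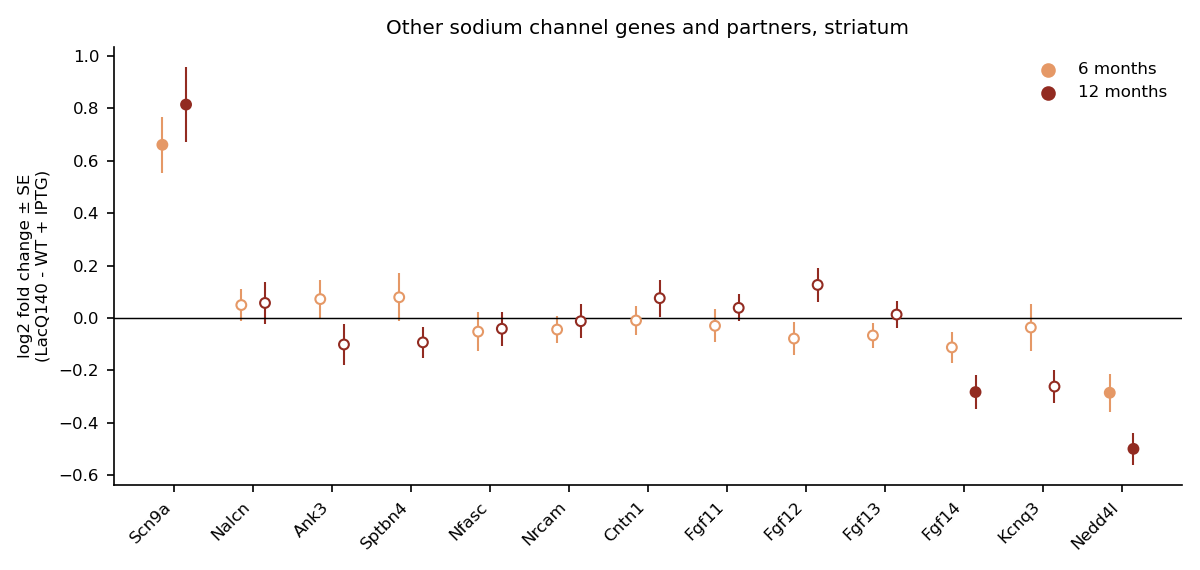
Log2 fold changes with SE in LacQ140 against WT + IPTG striatum at 6 months (light) and 12 months (dark) for Scn9a, Nalcn and the 11 partner genes; filled points were called. Scn9a is above 0 at both ages (0.66 and 0.81), and Nedd4l is below 0 at both (-0.28 and -0.50).

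Genes were also ranked by how their log2 CPM followed that of Scn4b across libraries of striatum (50 at 6 and 57 at 12 months, 13281 genes with a mean log2 CPM of at least 1), as a description of libraries that share group, depth and dissection. The 5 most alike outside the family were Hipk4 (mean Pearson r 0.96), Ptpn7 (0.95), Adcy5 (0.94), Gm19410 (0.94) and Clspn (0.93), of which Adcy5, a striatal adenylyl cyclase, is among the spiny neuron markers. Among the members Scn2b had the highest mean r at 0.71, and Scn3b the lowest at -0.29, the α genes lying at 0.17 to 0.25. In cortex (50 and 60 libraries, 12815 genes) the genes most alike were Rasd2 (0.82), Gnal (0.80), Arel1 (0.79), Clip4 (0.76) and Pde1b (0.76). Scn2b had the highest mean r among the members there (0.68), with 0.86 at 12 months, in the libraries with the reversed length slope. At 6 months its cortical r was 0.50, below that of Scn3a (0.58), Scn1a (0.57) and Scn2a (0.54).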

How the data were processed

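The authors made paired-end libraries from striatum and cortex RNA, with 33292057 to 68038831 reads assigned to genes per library, which makes counting error small for all members. The values are estimated counts per gene as deposited by the authors, in 1 table per age, on build GRCm38 per the submitters' processing notes. The aligner, counter and annotation are not given in the sources used here. Of the nonzero values 32.22% were not whole (tolerance 1e-06) and were rounded. Identifiers matched GENCODE for 54495 of 54532 genes, and 0 value columns were unmapped.

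Libraries were scaled by TMM and genes with at least 1 count in a set were tested with edgeR 4.0.16's quasi-likelihood test (R 4.3.3, limma 3.58.1), with all groups of a tissue and age in a joint fit, models over both ages or tissues for interactions, and mouse as block between tissues. P-values were adjusted by Benjamini-Hochberg over all genes tested, and a call needed an adjusted p under 0.05 and a change of 20%. Differences are log2 with SE and intervals are 95%. DESeq2 1.42.0 gave an alternative and the estimates for the reversal probability, computed as the study's methods describe. Other alternatives were scaling, filters, the fold bound, the control group, fewer groups, a replicate block, the length slope and leaving out libraries. The scripts were tested on simulated data. Python 3.11.15 with numpy 2.4.6, pandas 2.3.3 and scipy 1.17.1 compiled the values.

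Mice are the replicates. Same-numbered mice of different groups did not deviate together (correlations of -0.44 to 0.49, medians of 0.14, -0.05, 0.00 and 0.01), so numbers name samples and do not pair them. The members, gene lists and tests were chosen with earlier results of these data known. All members were named, with genes of the other channel and partner lists called for LacQ140 in striatum, Htt, and the 5 genes most like Scn4b per tissue. The marker lists shown were given by counts or sums, and the LacQ140 counts of the remaining marker lists are not given here. Hcrt, Scn4a and Tac1 were named beyond this, after their values were seen. Results for some genes of these lists are not reported here. Levels per length use the longest annotated transcript. Promoter windows were copied from RefSeq.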

Additional observations from a re-analysis of the deposited data

Results flagged for a closer look

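The 4 differences between ages or tissues given next passed a test of the difference itself. The LacQ140 effect on Scn4b in striatum was more negative at 12 than at 6 months by -0.797 on the log2 scale, with age and batch coinciding. It was more negative in striatum than in cortex by -0.466 at 6 months and -1.56 at 12 months, and that on Scn2b by -0.543 at 12 months.

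Each of the 7 members was examined in each group of libraries, which made 154 sets of values. Of these, 8 had a library apart from the rest of its group (Dixon's 95% criterion), LacQ140_2M F4 being counted for both Scn4b and Scn1a. Chance gives about 1 in 20 sets, so 8 of 154 is near the number that chance gives. In 12-month striatum, LacQ140_2M F4 had the lowest Scn4b of its group (776.8 CPM) and the highest Scn1a (128.0 CPM), beside a thalamic marker sum of 419.4 CPM (others 47.51 to 135.0) and a cortical marker sum of 101.2 CPM (others 25.39 to 74.77), whose part in these values was not tested. In the same tissue and age Scn2a was low in WT + IPTG M4 (126.3 CPM) and Scn3a in LacQ140_2M M2 (39.24 CPM). Scn2a was high in 6-month striatum of WT + IPTG F2 (214.0 CPM). In cortex, Scn3b stood apart in WT + IPTG M5 at 12 months (69.36 CPM) and LacQ140 M5 at 6 months (96.87 CPM), and Scn3a in WT F3 at 6 months (33.72 CPM). Further marker sums lay outside the range of the rest of the group, and a selection is given. WT + IPTG M4 had spiny 11970 CPM (others up to 11600) and astrocyte 2736 CPM (others at least 3016). Oligodendrocyte sums were 12670 CPM in LacQ140_2M M2 (others up to 11860) and 12780 CPM in WT + IPTG F2 (others at least 13790). WT + IPTG M5 had choroid plexus and pituitary 1322 CPM (others up to 1063). LacQ140 M5 had spiny 572.7 CPM (others up to 570.1) and WT F3 thalamic 161.9 CPM (others up to 135.4). Sums of other lists, not given here, also lay outside the range in some of these libraries. Their part in these values was not tested.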

How the results depend on the processing

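Of 3402 tests of single genes repeated under alternatives, 3369 kept call and direction, 14 lost and 19 gained a call, and 0 called values changed sign. Of 486 counts of members, 465 stayed within 1.5 times. With the length slope as covariate, members called went from 6 to 2 between tissues at 12 months, from 1 to 0 for lowering from 8 months, from 0 to 1 for LacQ140_8M against LacQ140_2M and against LacQ140_A, and from 1 to 2 for LacQ140_8M against WT + IPTG. Without the fold bound they were 2 for LacQ140 at 6 months (1 with it), 3 and 2 for lowering from conception and from 2 months at 6 months (1 each), 2 for LacQ140_2M and 3 for LacQ140_8M against WT + IPTG at 12 months (1 each). With the other WT group, LacQ140_2M at 6 months had 1 (0), and with the 2 groups alone, lowering from conception in 12-month cortex had 1 (0). Leaving out libraries gave 0 to 1 members for lowering from 8 months. The share of all genes called under each of these settings is not given here. These counts therefore describe the settings and are not read as results about the members. The reversal probability of Scn4b for lowering from conception at 12 months was 0.929 with equal weights against 0.979, its class becoming negligible in place of partial, and with merged exon length Scn4b ranked 2 and 3 in cortex at 6 and 12 months against 4 and 4. The cause of these shifts was not tested.

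With the replicate block the late gain of Scn4b was 0.34 (edgeR adjusted p 0.0105), and no call on a member changed. Leaving out libraries in turn for lowering from 8 months, and without LacQ140_2M F4 for lowering from 2 months, was chosen after seeing the data. Depth limited no member, but Scn4a and Scn9a have few reads.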
